A study of Homo sapiens with 16 samples.

Results

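The genes described here are 10 canonical targets and feedback regulators of WNT-beta-catenin signalling, AXIN2, LGR4, LGR5, SP5, NKD1, RNF43, ZNRF3, TCF7, LEF1 and DKK1. They were taken by name from the 35810 genes summed from the transcript tables, with no measured value in the rule, and all 10 were among the 16705 genes that passed a filter on low counts. The cells were SA121 human embryonic stem cells carrying an NGN3-GFP reporter, differentiated in culture into pancreatic progenitors. On day 19 they were treated with 0.5 µM latrunculin B (LatB), a toxin that binds actin monomers and depolymerises actin filaments. Libraries of poly(A) RNA came from control cells at 0 h (n = 3), control cells at 24 h in the solvent DMSO (n = 2), and cells after 3 h (n = 3), 6 h (n = 3), 12 h (n = 2) or 24 h (n = 3) of LatB. The series' design text places the 0 h controls before treatment, although their treatment tag reads DMSO. All libraries came from this single line, and the labels do not say that replicates were separate differentiations, so p-values measure the spread between these libraries, which may be technical.

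In canonical WNT signalling a WNT ligand joins a Frizzled receptor to the co-receptors LRP5 and LRP6. The complex that destroys beta-catenin is then disabled, and beta-catenin enters the nucleus to activate genes through the TCF and LEF DNA-binding proteins. Many of its targets feed back on the pathway. RNF43 and ZNRF3 remove Frizzled from the cell surface, and R-spondins bound to LGR4 or LGR5 withdraw RNF43 and ZNRF3. DKK1 blocks LRP5 and LRP6, AXIN2 rebuilds the destruction complex and NKD1 binds Dishevelled. In the developing pancreas the pathway is known for roles in progenitor growth, and beta-catenin is also a component of cell-cell junctions.

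Gene positions are those of GENCODE release 44 on GRCh38. The 250 bases before the RefSeq transcription start (GRCh38.p14) were searched on both strands for CTTTGNN, with A or T at each N, a common form of the TCF/LEF recognition sequence. A promoter of 6 of the 10 members, 8 starts in all, matched the table, and the members without an entry were AXIN2, LGR5, NKD1 and ZNRF3. SP5 held 3 matches and DKK1 2, where 12.0% of 35116 promoters of the same length held at least 1, 1.21% at least 2 and 0.122% at least 3. The 2 sequences are shown because they carry the motif more than once, with the matches in capitals on the strand of the gene.
SP5 promoter: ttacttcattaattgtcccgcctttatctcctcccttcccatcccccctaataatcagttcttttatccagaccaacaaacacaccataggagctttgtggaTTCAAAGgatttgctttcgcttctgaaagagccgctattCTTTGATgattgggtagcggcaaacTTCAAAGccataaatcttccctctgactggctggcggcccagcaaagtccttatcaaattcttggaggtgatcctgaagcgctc
DKK1 promoter: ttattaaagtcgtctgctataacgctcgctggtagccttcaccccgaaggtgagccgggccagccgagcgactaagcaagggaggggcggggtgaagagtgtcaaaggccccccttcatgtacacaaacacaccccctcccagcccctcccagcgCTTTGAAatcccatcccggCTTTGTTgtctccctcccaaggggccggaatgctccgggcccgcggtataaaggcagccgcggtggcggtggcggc
The SP5 window is chr2:170715087-170715336 and that of DKK1 chr10:52314031-52314280, both on the plus strand. In SP5 the matches begin 148, 109 and 84 bases before the start, and in DKK1 95 and 76 bases before it. A further start of TCF7, chr5:134123368-134123617, held 1 match. Its other start, LEF1, LGR4 and both starts of RNF43 held none in the windows searched. The LEF1 window, chr4:108166302-108166551, and both TCF7 windows lay downstream of the first annotated start codon of their gene. The promoters of the transcripts that hold those start codons were not searched. A match describes these letters only.

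The 16 libraries held 23609727 to 33515398 estimated reads. All 9 pancreatic progenitor markers, among them PDX1, SOX9 and NKX6-1, were detected, with summed levels of 1825 to 3376 CPM (reads of a gene as a rate over the scaled library size). The summed level of 10 endocrine markers was 38.8 to 48.1 CPM in control 0 h, 75.4 to 89.3 CPM in control 24 h and 123 to 378 CPM after 24 h of LatB. The 2 libraries of 12 h stood apart from each other. In every group, each of 8 mesenchyme markers reached 0.1 CPM in at least 1 library. Replicate 2 of LatB 12 h held 870 CPM of these 8 summed mesenchyme markers against 159 CPM in replicate 1 and 68.5 to 213 CPM in the other 14 libraries. It also held 1436 CPM of 5 liver markers against 709 CPM and 40.5 CPM of 4 endothelium markers against 9.62 CPM. The members, and some pathway genes named at 12 h, are therefore given for both libraries and for each alone. The counts of the pathway lists at 12 h use both libraries. The part of the markers in these values was not tested. In bulk RNA, fewer cells of a type and less RNA per cell cannot be told apart.

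**Figure D1:**
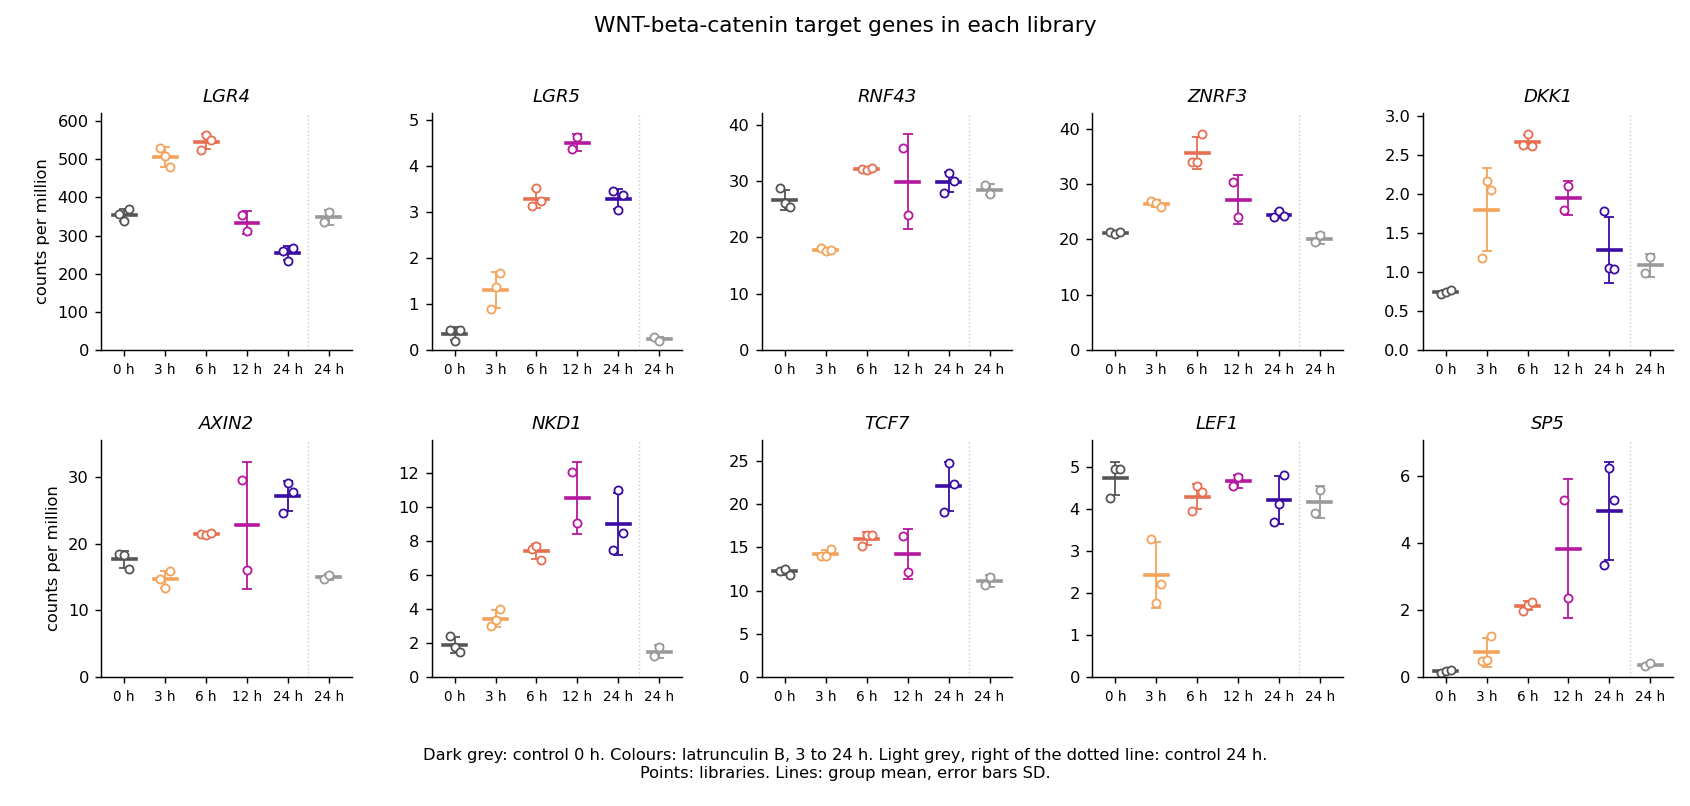
Level of each member in CPM (vertical axis, from 0) in every library, by group (horizontal axis), where points are libraries, lines are group means and error bars are SD. LGR5, NKD1 and SP5 lay above both control groups at every time of LatB, LGR4 fell from 546 CPM at 6 h to 254 CPM at 24 h, and the 2 libraries of 12 h lay far apart for AXIN2, RNF43 and SP5.

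The question asked of each time was which members of this feedback set moved with latrunculin B. The samples of 3, 6 and 12 h were compared with control 0 h and those of 24 h with control 24 h. The 3 earlier comparisons share the same control libraries, and no DMSO libraries of 3, 6 or 12 h were analysed here, so there the drug and the time in culture cannot be told apart. A value after ± is the SE of a log2 fold change, and elsewhere the SD where stated. At 3 h, 8 of the 10 members were called by edgeR's quasi-likelihood test at an adjusted p under 0.05, 6 higher and 2 lower, where 31.6% of all genes tested were called, 16.8% higher and 14.7% lower. Without scaling between libraries, 36.1% of all calls at 3 h were higher instead of 53.3%, and the members called were unchanged in number and direction. At 6 h, 7 were called, all higher (all genes 43.3%, with 22.9% higher and 20.4% lower, and 37.7% of calls higher without scaling instead of 52.8%). At 12 h, 5 were called, all higher (all genes 35.8%, with 19.1% higher and 16.8% lower). The libraries of 12 h gave unlike values for some members, which are given below for each library alone. At 24 h, 7 were called, 6 higher and 1 lower (all genes 40.8%, with 21.9% higher and 18.8% lower, and 23.5% without replicate 1 of control 24 h). The median log2 fold change of the members was 0.41 at 3 h, 0.69 at 6 h, 0.36 at 12 h and 0.57 at 24 h, beside a median of 0.00, -0.01, 0.01 and 0.01 over all genes tested.

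The 2 control groups differ by a day in culture with DMSO. Between control 24 h and control 0 h, edgeR called 0 of the 10 members, with 0.251% of all genes called, 0.0299% higher and 0.221% lower. An unadjusted p under 0.05 was reached by 0 members in this fit and in DESeq2, by 1 in limma on log2(TPM + 1), and by up to 2 in other edgeR settings (2 with an offset for transcript length, with only the compared groups and with both 12 h libraries left out), and no member was called in any of them. The libraries of the 2 control groups did not overlap for 5 of the 10 members, higher at 24 h for SP5 and DKK1 and lower for AXIN2, TCF7 and ZNRF3, as for 28.8% of all genes tested. The smallest adjusted p of a member was 0.644 in edgeR, and SP5, with a log2 difference of 1.15 ± 0.58 (95% interval -0.10 to 2.41), was the farthest from 0. The 4 proliferation markers summed to 266 to 314 CPM in control 0 h, 139 to 160 CPM in control 24 h and 162 to 223 CPM after 24 h of LatB. KIFC1 and RRM2 of these were called lower in control 24 h than in control 0 h and higher with LatB than in control 24 h, and MKI67 and TOP2A were called in neither comparison. Their part in the members' values at 24 h was not tested.

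**Figure D2:**
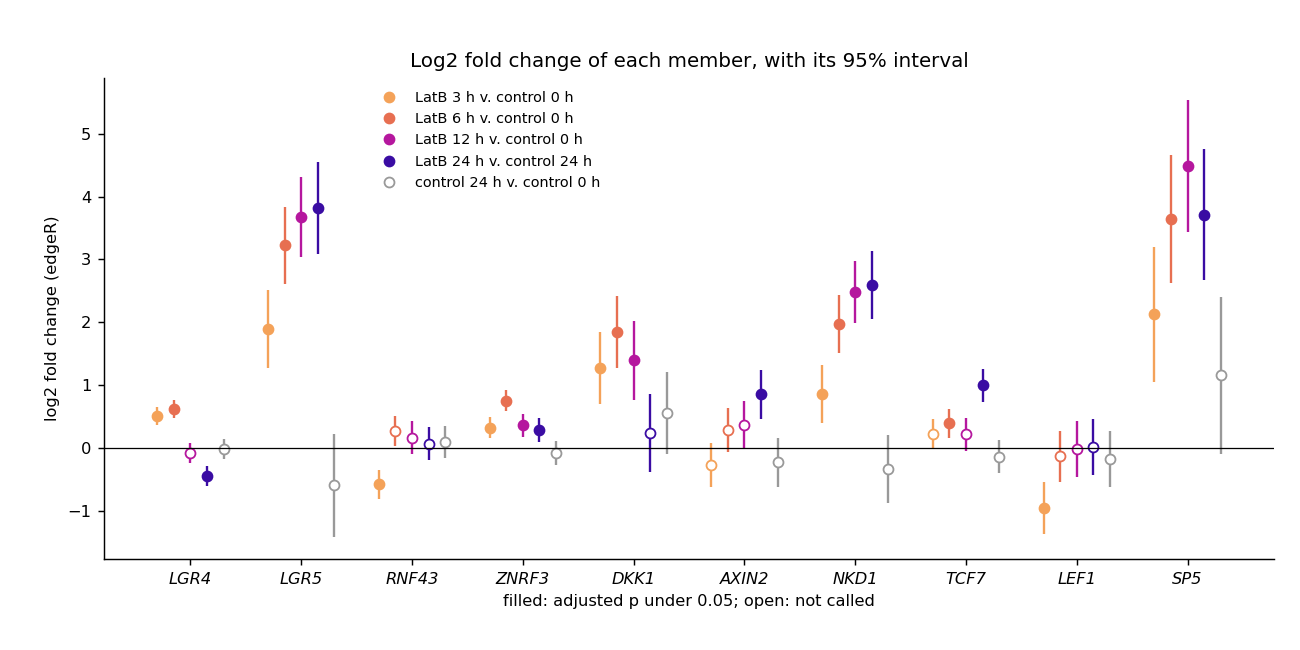
Log2 fold change of each member (vertical axis) with its 95% interval, for latrunculin B at 3, 6 and 12 h against control 0 h, at 24 h against control 24 h, and for control 24 h against control 0 h. Filled points passed an adjusted p under 0.05 in edgeR, and SP5 at 12 h reached a log2 value of 4.49.

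LGR5 and LGR4, receptors for R-spondins, both rose early and then parted. LGR5 (chr12:71439798-71586310, plus strand), best known as a marker of intestinal stem cells, was near the limit of detection in control cells, with 0.438, 0.201 and 0.424 CPM at 0 h (6 to 11 estimated reads a library). It held 0.271 and 0.188 CPM in control 24 h. It reached 0.895, 1.37 and 1.67 CPM at 3 h, 3.12, 3.52 and 3.23 CPM at 6 h, 4.37 and 4.63 CPM at 12 h. After 24 h of LatB it held 3.45, 3.04 and 3.36 CPM. In CPM every treated library was above every control library, and 6 h was above 3 h without overlap. In TPM, replicate 1 of control 0 h (0.322) lay above replicate 1 of LatB 3 h (0.312). On log2(TPM + 1) the call of LGR5 at 3 h was lost (0.32, limma adjusted p = 0.0734). The log2 fold change of LGR5 was 1.90 ± 0.29 (edgeR adjusted p = 0.000233) at 3 h, 3.22 ± 0.28 (edgeR adjusted p = 1.67e-06) at 6 h and 3.67 ± 0.30 at 12 h, and at 24 h it was 3.82 ± 0.34 (edgeR adjusted p = 4.24e-06), a fold of 14.1. From 6 h to 24 h of LatB no difference was called, with a log2 value of -0.00 (95% interval -0.50 to 0.49).

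LGR4 (chr11:27365961-27472790, minus strand) was the most abundant member in every group by counts per transcript length. Its level was 357, 338 and 369 CPM at 0 h and 334 and 362 CPM in control 24 h, 530, 508 and 479 CPM at 3 h and 525, 563 and 551 CPM at 6 h. It was then 354 and 312 CPM at 12 h and 260, 233 and 268 CPM at 24 h of LatB. The 3 h and 6 h libraries lay above all controls and the 24 h libraries lay below all of them. LGR4 rose by 0.51 on the log2 scale (SE 0.07, edgeR adjusted p = 6.74e-05) at 3 h and by 0.62 ± 0.07 (edgeR adjusted p = 8.34e-06) at 6 h, was -0.09 ± 0.07 at 12 h, and fell by 0.46 ± 0.07 (edgeR adjusted p = 0.000318) at 24 h against control 24 h. Between 6 h and 24 h of LatB it fell by 1.11 on the log2 scale (SE 0.07, edgeR adjusted p = 1.63e-07). The 24 h effect differed from the 3 h effect by -0.97 ± 0.10 (edgeR adjusted p = 2.82e-05).

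Of the E3 ubiquitin ligases that these receptors act on, ZNRF3 was higher at all 4 times. RNF43 was called lower at 3 h and at no other time in the fit of all groups. ZNRF3 (chr22:28883572-29057488, plus strand) stood at 20.9 to 21.4 CPM at 0 h and 19.4 to 20.8 CPM in control 24 h. In treated cells it stood at 25.8 to 27.0 CPM at 3 h, 33.9 to 39.0 CPM at 6 h, 30.3 and 24.0 CPM at 12 h and 24.0 to 25.1 CPM at 24 h of LatB. Its rise was 0.32 ± 0.08 at 3 h, 0.75 ± 0.08 (edgeR adjusted p = 7.34e-06) at 6 h, 0.36 ± 0.09 at 12 h and 0.28 ± 0.09 (edgeR adjusted p = 0.0207) at 24 h on the log2 scale. No treated library overlapped the controls, and the level at 24 h was below that at 6 h by -0.54 ± 0.08 (edgeR adjusted p = 0.000125). At 24 h the call of ZNRF3 was lost without replicate 1 of control 24 h (0.23, edgeR adjusted p = 0.164) and without replicate 2 of LatB 24 h (0.26, edgeR adjusted p = 0.0549), and at 12 h it was lost without replicate 1 (0.18, edgeR adjusted p = 0.105). At 3 h the call was lost on log2(TPM + 0.1) (0.21, limma adjusted p = 0.167) and on log2(TPM + 1) (0.17, limma adjusted p = 0.169). It was kept there with the offset for transcript length. That offset lost the call of ZNRF3 at 24 h (0.27, edgeR adjusted p = 0.0513), as did both TPM scales.

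RNF43 (chr17:58353676-58417595, minus strand) held 28.7, 26.0 and 25.3 CPM at 0 h, was at 18, 17.6 and 17.8 CPM at 3 h, and stood at 32.1, 32.01 and 32.2 CPM at 6 h. The 3 h libraries lay below every other library. It fell by 0.58 on the log2 scale (SE 0.11, edgeR adjusted p = 0.00121) at 3 h and rose by 0.85 ± 0.11 (edgeR adjusted p = 0.000162) from 3 h to 6 h. At 6 h its difference from control 0 h was 0.27 ± 0.11 (edgeR adjusted p = 0.0611). It was called there with only the compared groups (edgeR adjusted p = 0.00573) and with both 12 h libraries left out of the fit (edgeR adjusted p = 0.00167). At 24 h it was 0.06 ± 0.12 (95% interval -0.20 to 0.32). At 12 h the libraries split, 35.8 CPM in replicate 1 and 23.9 CPM in replicate 2, with log2 values against control 0 h of 0.42 (edgeR adjusted p = 0.00142) and -0.16 (edgeR adjusted p = 0.151).

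DKK1 (chr10:52314281-52318042, plus strand), the secreted blocker of LRP5 and LRP6, rose and came back toward the control. It stood at 0.717 to 0.764 CPM at 0 h (18 to 22 estimated reads), 1.18 to 2.17 CPM at 3 h, 2.61 to 2.76 CPM at 6 h and 1.79 and 2.10 CPM at 12 h. At 24 h of LatB it stood at 1.77, 1.04 and 1.03 CPM, beside 0.983 and 1.19 CPM in control 24 h. The rise of DKK1 was 1.27 ± 0.27 (edgeR adjusted p = 0.00254) at 3 h, 1.85 ± 0.27 (edgeR adjusted p = 0.000104) at 6 h and 1.39 ± 0.29 (edgeR adjusted p = 0.00235) at 12 h. At 24 h the groups overlapped, with 0.24 ± 0.29 (95% interval -0.39 to 0.86), and without replicate 1 of LatB 24 h the value was -0.07. Against control 24 h in place of control 0 h, the call of DKK1 was lost at 3 h (0.72, edgeR adjusted p = 0.0746) and at 12 h (0.84, edgeR adjusted p = 0.0541), and 24 h of LatB against control 0 h gave 0.79 (edgeR adjusted p = 0.0308). From 6 h to 24 h DKK1 fell by 1.06 ± 0.25 (edgeR adjusted p = 0.00501), which was -0.39 and not called on log2(TPM + 0.1) (limma adjusted p = 0.393).

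AXIN2 and NKD1, which act inside the cell against beta-catenin, moved on different schedules. AXIN2 (chr17:65528563-65561648, minus strand) is widely used as a readout of the pathway. It held 18.4, 18.3 and 16.2 CPM at 0 h, 14.7, 13.3 and 15.9 CPM at 3 h, 21.4, 21.3 and 21.6 CPM at 6 h. After 24 h of LatB it held 24.6, 29.1 and 27.7 CPM, beside 14.7 and 15.3 CPM in control 24 h. The 3 h libraries lay just below the 0 h ones, the 6 h libraries above them and the 24 h libraries above every control. At 3 h the log2 value of AXIN2 was -0.27 ± 0.16 (edgeR adjusted p = 0.238) and at 6 h 0.28 ± 0.16 (edgeR adjusted p = 0.184), neither of them called. With both 12 h libraries left out of the fit edgeR's adjusted p was 0.0185 at 3 h and 0.0107 at 6 h, a fit added after the data were seen. AXIN2 rose by 0.85 ± 0.18 (edgeR adjusted p = 0.0022) at 24 h, a fold of 1.81. It also rose by 0.55 ± 0.16 (edgeR adjusted p = 0.0271) from 3 h to 6 h, a call that each of 5 of the 6 libraries decided, with edgeR adjusted p from 0.0620 to 0.0888 without 1 of them (all but replicate 3 of LatB 3 h). At 12 h it was 29.5 CPM in replicate 1 and 16.03 CPM in replicate 2, or 0.74 (edgeR adjusted p = 0.000236) and -0.14 (edgeR adjusted p = 0.374) against control 0 h.

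NKD1 (chr16:50548396-50649249, plus strand) rose by counts at all 4 times. It held 2.39, 1.78 and 1.48 CPM at 0 h and 1.22 and 1.75 CPM in control 24 h. Treated cells held 2.97, 3.32 and 3.99 CPM at 3 h, 7.54, 7.72 and 6.88 CPM at 6 h, 12.0 and 9.03 CPM at 12 h and 7.44, 10.99 and 8.48 CPM at 24 h of LatB. No treated library overlapped a control library. Its log2 fold change was 0.86 ± 0.21 (edgeR adjusted p = 0.00768) at 3 h, 1.97 ± 0.21 (edgeR adjusted p = 9.82e-06) at 6 h, 2.48 ± 0.23 at 12 h and 2.59 ± 0.25 (edgeR adjusted p = 7.66e-06) at 24 h. Of its TPM (a share of transcripts, from counts divided by transcript length), a median of 44.8% sat in annotated transcripts that encode no protein. With an offset for transcript length NKD1 at 3 h was -0.01, and on log2(TPM + 0.1) it was -0.04, so the rise at 3 h was seen in counts and not in levels per length. At 12 h the length offset gave 1.31 (edgeR adjusted p = 0.203), no longer called. Its calls at 6 h and 24 h stood under each alternative run.

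Among the factors that act in the nucleus, SP5 had large fold changes against control levels of few reads. SP5 (chr2:170715337-170718078, plus strand), a zinc-finger repressor of WNT targets, was counted with 3, 5 and 5 estimated reads at 0 h (0.120, 0.168 and 0.212 CPM) and 10 and 13 in control 24 h (0.339 and 0.407 CPM). It held 0.480, 0.505 and 1.23 CPM at 3 h, 1.98, 2.16 and 2.24 CPM at 6 h, 5.29 and 2.37 CPM at 12 h and 3.34, 6.23 and 5.29 CPM at 24 h of LatB. All treated libraries lay above all control libraries. With so few control reads, SP5 passed the filter on low counts only through its LatB libraries. Its calls against the controls, also part of the counts of members called, were thus not free of that selection. Run without the filter, the test lost no call of a member. Its log2 fold change was 2.12 ± 0.50 (edgeR adjusted p = 0.00537) at 3 h, 3.64 ± 0.47 (edgeR adjusted p = 4.29e-05) at 6 h, 4.49 ± 0.49 at 12 h and 3.71 ± 0.49 (edgeR adjusted p = 7.11e-05) at 24 h. Against control 24 h the value at 3 h was 0.97 and was not called (edgeR adjusted p = 0.153). The order of SP5 and LGR5 turned with the control, since SP5 had the larger value at 3, 6 and 12 h against control 0 h and LGR5 against control 24 h (0.97, 2.49 and 3.33 for SP5, and 2.50, 3.82 and 4.28 for LGR5). SP5 rose further from 6 h to 24 h by 1.22 ± 0.35 (edgeR adjusted p = 0.0151), a call lost without replicate 1 of LatB 6 h (1.17, edgeR adjusted p = 0.0505) or without replicate 2 of LatB 24 h (1.02, edgeR adjusted p = 0.0638).

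TCF7 and LEF1, DNA-binding partners of beta-catenin, did not move together. TCF7 (chr5:134114681-134151865, plus strand) held 11.8 to 12.6 CPM at 0 h, 13.97 to 14.8 CPM at 3 h, 15.2 to 16.5 CPM at 6 h, and 16.3 and 12.2 CPM at 12 h. At 24 h of LatB it held 19.1 to 24.8 CPM, beside 10.6 and 11.6 CPM in control 24 h. Apart from replicate 2 of 12 h, every treated library lay above all control libraries. It rose by 0.39 ± 0.11 (edgeR adjusted p = 0.0103) at 6 h and by 0.99 ± 0.12 (edgeR adjusted p = 4.36e-05) at 24 h, a fold of 1.99, and from 6 h to 24 h by 0.46 ± 0.11 (edgeR adjusted p = 0.00365). At 3 h it was 0.22 ± 0.11 (edgeR adjusted p = 0.139), and the call at 6 h was lost with the length offset (0.31, edgeR adjusted p = 0.0669). TCF7 was called at 3 h with only the compared groups (0.22, edgeR adjusted p = 0.0393) and against control 24 h (0.36, edgeR adjusted p = 0.0348). LEF1 (chr4:108047545-108168956, minus strand) held 4.26, 4.96 and 4.96 CPM at 0 h, 3.29, 1.77 and 2.21 CPM at 3 h and 3.96, 4.54 and 4.39 CPM at 6 h. It fell by 0.96 ± 0.19 (edgeR adjusted p = 0.00184) at 3 h, without overlap in CPM, and rose by 0.82 ± 0.19 (edgeR adjusted p = 0.00844) from 3 h to 6 h. That rise of LEF1 was not called with the length offset (0.76, edgeR adjusted p = 0.142) or on either TPM scale. At 6, 12 and 24 h LEF1 overlapped its control, with log2 values of -0.14, -0.02 and 0.01 and 95% intervals from -0.54 to 0.27, -0.47 to 0.43 and -0.44 to 0.46.

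Both genes encode a long form, which begins with a domain that binds beta-catenin, and short forms from downstream starts that lack it. The first 30 coding bases of each, from GENCODE release 44 on GRCh38, are printed here because they tell the forms apart, with the start codon in capitals.
TCF7 long: ATGccgcagctggactccggcgggggcggc
TCF7 short: ATGtacaaagagaccgtctactccgccttc
LEF1 long: ATGccccaactctccggaggaggtggcggc
LEF1 short: ATGgcagaggtggccagacaagcacaaacc
The long TCF7 start codon begins at base 134114907 of chromosome 5 (plus strand) and the short one shown at 134115938, while in LEF1, on the minus strand of chromosome 4, they begin at 108167767 and 108166280. The long form of TCF7 made up 45.0% ± 4.45 (SD, n = 3) of the TPM with an annotated start at 0 h, 39.2% ± 8.46 at 3 h, 48.5% ± 7.33 at 6 h, 46.4% ± 11.8 (n = 2) at 12 h and 38.7% ± 6.87 at 24 h of LatB, beside 39.7% ± 4.52 (n = 2) in control 24 h. No difference in this share passed the test (exact permutation test over libraries, two-sided, raw p from 0.4 to 1.0, adjusted p over 10 tests from 0.8 to 1.0, smallest p possible 0.1 or 0.2). At 24 h the long form stood at 3.71 ± 0.61 TPM and the short at 5.92 ± 1.12 TPM, beside 1.97 ± 0.24 and 3.00 ± 0.20 TPM in control 24 h, so that both were higher in treated cells. LEF1 with an annotated start was mostly the long form, at 49.4% to 100% in single libraries, and a median of 55.8% of its TPM came from transcripts that encode no protein. The 49.4% was replicate 1 of LatB 24 h, where the short form rested on 5.2 estimated reads and the long form on 49.4. By estimated reads the long share in that library was 90.5%. The exact permutation test for LEF1 gave a raw p of 0.1 at 3 h and at 6 h, the smallest possible, and 0.5 after adjustment.

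**Figure D3:**
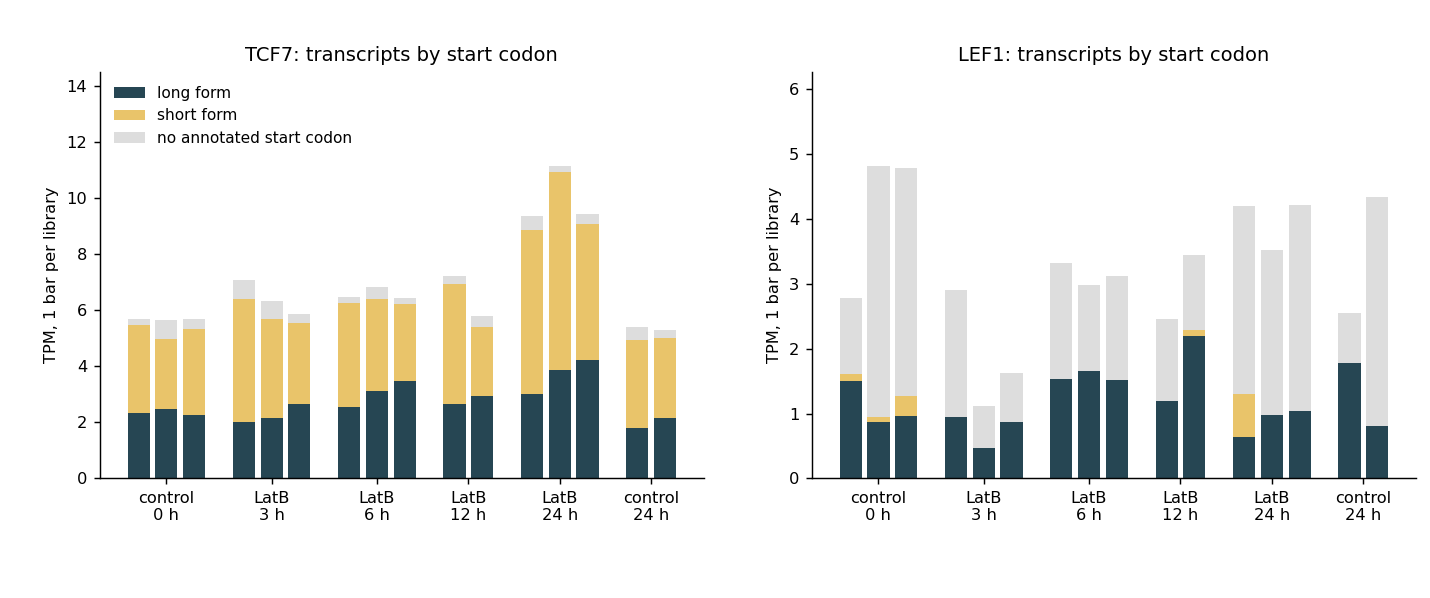
TPM of TCF7 and LEF1 in each library (bars, vertical axis from 0), split into transcripts with the most upstream annotated start codon (long form), with a downstream one (short form) and with none. TCF7 reached 9.35 to 11.2 TPM after 24 h of latrunculin B with both forms higher than in control 24 h, and the short form of LEF1 reached at most 0.659 TPM.

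The other times compared were 6 h against 3 h and 24 h against 6 h of LatB. From 3 h to 6 h, 7 of the 10 members rose and none fell (all genes 22.2%, with 11.9% higher and 10.3% lower), with a median log2 difference of 0.70 beside -0.01 over all genes. LGR5 rose by 1.33 ± 0.24, SP5 by 1.52 ± 0.39, NKD1 by 1.11 ± 0.20 and ZNRF3 by 0.43 ± 0.08, and the other 3 were AXIN2, RNF43 and LEF1. With an offset for transcript length, 4 members were called, where 12.1% of all genes were called. The calls lost there were AXIN2 (edgeR adjusted p = 0.0583), NKD1 (edgeR adjusted p = 0.0672) and LEF1 (edgeR adjusted p = 0.142). From 6 h to 24 h, 2 members rose, SP5 and TCF7, and 3 fell, LGR4, ZNRF3 and DKK1 (all genes 37.9%, with 19.0% higher and 18.9% lower, and with 73.8% of calls higher without scaling instead of 50.1%, a shift of 0.13 in the median of all genes). In both comparisons the time on the drug and the time in culture cannot be told apart.

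The 24 h effect and the 3 h effect, each against its own control, were compared directly in the same fit. They differed for 7 of the 10 members, 6 with a higher value at 24 h (all genes 27.9%, with 14.6% higher and 13.4% lower, and with 69.0% of calls higher without scaling instead of 52.1%, a shift of 0.10 in the median of all genes). Without replicate 1 of control 24 h, 17.6% of all genes were called. The difference was 1.92 for LGR5 ± 0.45 (edgeR adjusted p = 0.0067), 1.73 for NKD1 ± 0.32 (edgeR adjusted p = 0.00167), 1.12 for AXIN2 ± 0.24 (edgeR adjusted p = 0.00403) and 0.77 for TCF7 ± 0.16 (edgeR adjusted p = 0.00331). RNF43 and LEF1 were lower at 3 h and near their control at 24 h, a difference of 0.65 ± 0.16 and 0.97 ± 0.28. For LEF1 the call was lost without replicate 1 of control 24 h (0.88, edgeR adjusted p = 0.0973), without replicate 3 of LatB 24 h (0.86, edgeR adjusted p = 0.0536) and with coding transcripts alone (0.57, edgeR adjusted p = 0.24). ZNRF3 gave -0.04 ± 0.12 (95% interval -0.29 to 0.22), DKK1 -1.04 (edgeR adjusted p = 0.0647) and SP5 1.59 (edgeR adjusted p = 0.121). DKK1 was called without replicate 1 of LatB 3 h (-1.26) or replicate 1 of LatB 24 h (-1.34), and SP5 without replicate 3 of LatB 3 h (2.18, edgeR adjusted p = 0.0236).

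**Figure D4:**
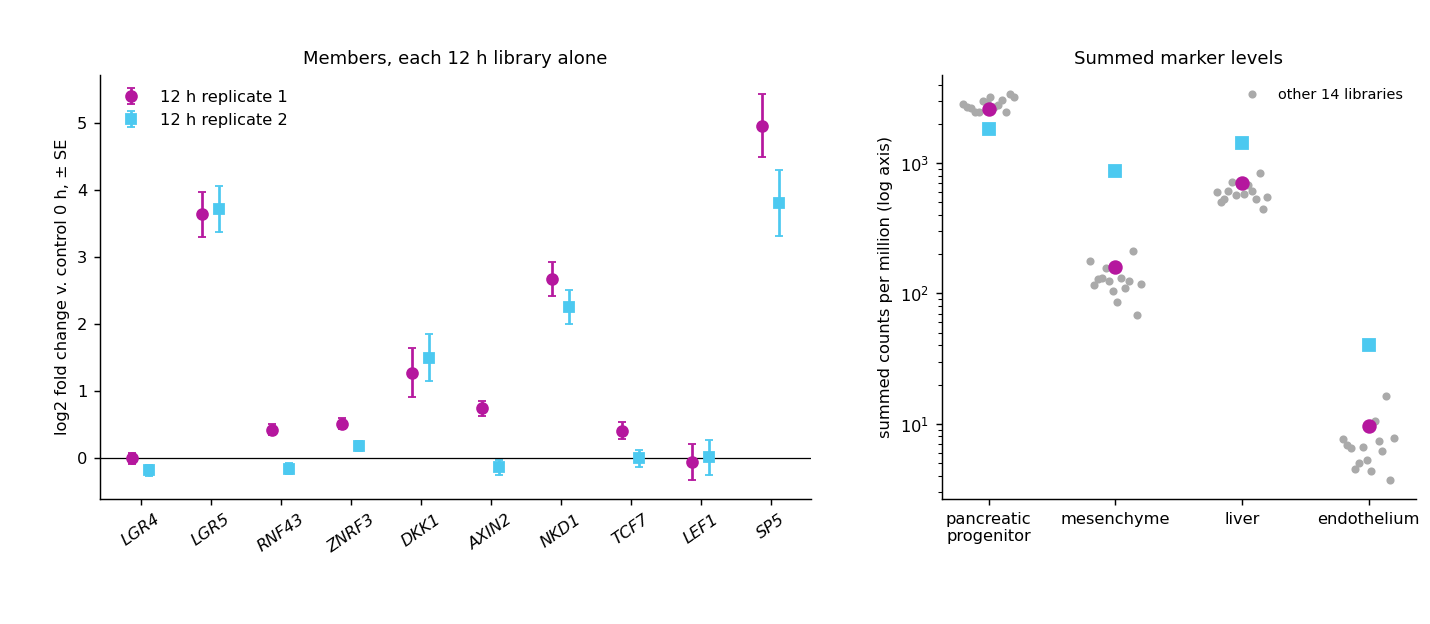
Left, log2 fold change of each member against control 0 h with its SE, for each of the 2 libraries of 12 h alone. Right, summed CPM of 4 marker lists on a log axis, where replicate 2 of 12 h held 870 CPM of mesenchyme markers and the other 14 libraries, in grey, 68.5 to 213 CPM.

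At 12 h some members had like values in both libraries and others did not. LGR5 was 3.63 in replicate 1 alone and 3.72 in replicate 2 alone, DKK1 1.27 and 1.497, and NKD1 2.67 and 2.26. SP5 was 4.96 and 3.80. AXIN2, RNF43, TCF7 and ZNRF3 were 0.74, 0.42, 0.41 and 0.51 in replicate 1 alone, and -0.14, -0.16, -0.01 and 0.18 in replicate 2 alone. With 1 library in the group, calls are not counted here. A single library per group was assumed here to vary like the others. The mesenchyme, liver and endothelium markers were the higher ones in replicate 2, and the pancreatic progenitor markers were lower there, 1825 CPM against 2596 CPM. Within the LatB 24 h group, replicate 1 held the most mesenchyme markers (213 CPM against 68.5 and 117 CPM) and the least endocrine markers (123 CPM against 378 and 340 CPM). In CPM it had the lowest AXIN2, TCF7, SP5, NKD1, RNF43, ZNRF3 and LEF1 and the highest DKK1 and LGR5 of the 3, with LGR4 between the others. It was thus at the edge of the group for nearly all members. The part of either marker list in those values was not tested.

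Expressed per transcript length, LGR4 was the leading member at 0 h with 116 ± 4.98 TPM (SD, n = 3). RNF43 followed with 11 ± 2.20 TPM, AXIN2 with 7.53 ± 1.19, TCF7 with 5.68 ± 0.03, ZNRF3 with 4.15 ± 0.11 and LEF1 with 4.13 ± 1.17 TPM. DKK1 held 0.771 ± 0.027 TPM, NKD1 0.524 ± 0.400, LGR5 0.218 ± 0.129 and SP5 0.0870 ± 0.0243 TPM. The libraries of ZNRF3 and LEF1 overlapped, as did those of DKK1 and NKD1, of NKD1 and LGR5, and of LGR5 and SP5, so that their order is not resolved. After 24 h of LatB the lower end was closer to the rest, with 2.53 ± 0.67 TPM for SP5, 2.05 ± 0.41 for DKK1, 1.61 ± 0.46 for NKD1 and 1.25 ± 0.095 for LGR5, while LGR4 stood at 84.2 ± 6.36, RNF43 at 11.1 ± 0.55 and AXIN2 at 10.9 ± 1.26 TPM.

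**Figure D5:**
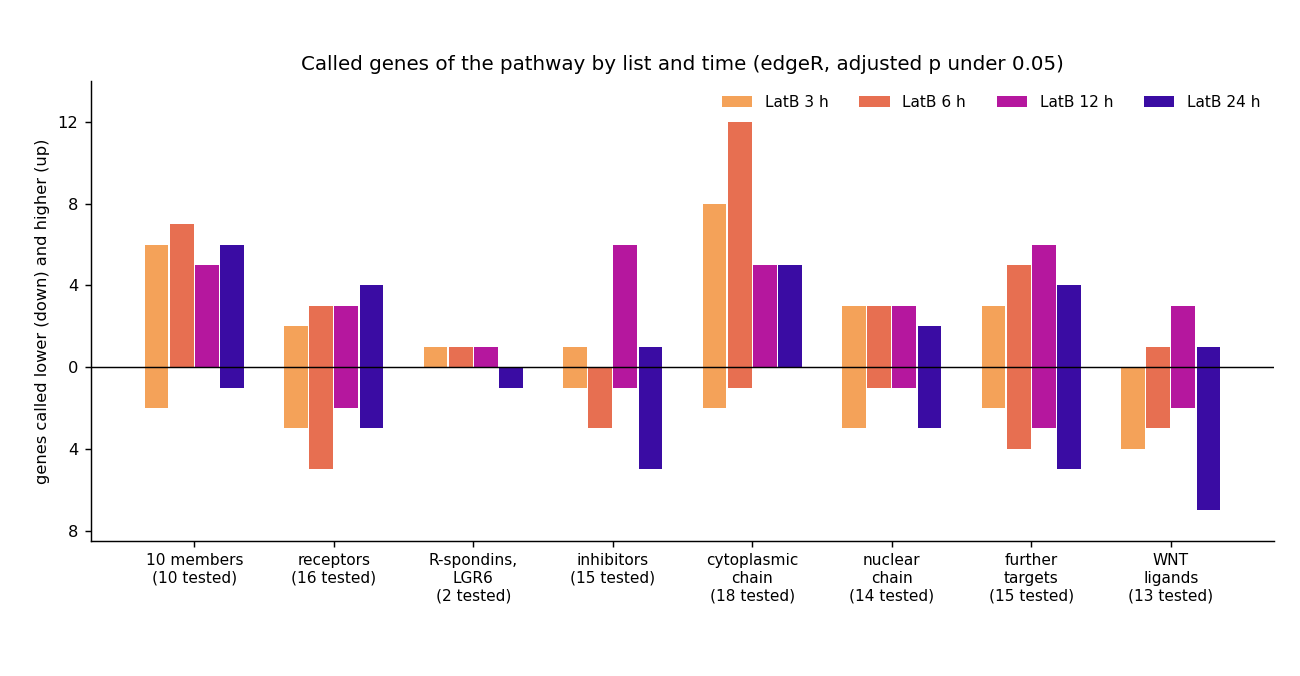
Number of genes called higher (up) and lower (down) by edgeR at an adjusted p under 0.05 in the 10 members and 7 lists of other pathway genes, at each time of latrunculin B, with the number tested under each list. The cytoplasmic chain had 12 genes higher and 1 lower of 18 at 6 h, where 43.3% of all genes tested were called. The WNT ligands had 1 higher and 7 lower of 13 at 24 h, where 40.8% of all genes tested were called.

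Upstream of these targets, some of the 16 receptor genes were called, in both directions. At 3 h 2 were higher, 3 lower and 11 not called, at 6 h 3, 5 and 8, at 12 h 3, 2 and 11, and at 24 h 4, 3 and 9, with medians of -0.02, -0.10, -0.10 and -0.04. The shares of all genes called at these times were 31.6%, 43.3%, 35.8% and 40.8%, and the receptors lay near them. The counts of 12 h rest on libraries that stood apart. FZD2, a Frizzled receptor, fell by 1.21 ± 0.07 (edgeR adjusted p = 1.24e-07) at 3 h, from 29.9 to 32.9 CPM down to 13.1 to 14.2 CPM, and was higher than its control by 0.45 ± 0.08 at 24 h, with 40.3 to 44.4 CPM. FZD8 fell at all 4 times, by 0.94 ± 0.21 at 3 h and 1.49 ± 0.23 (edgeR adjusted p = 0.000245) at 24 h, although at 12 h it was -1.54 in replicate 1 alone and -0.54 in replicate 2 alone, the latter not called (edgeR adjusted p = 0.0595). FZD5 fell by 1.23 ± 0.26 at 24 h, from 713 and 765 CPM in control 24 h to at most 455 CPM. FZD1 rose by 0.57 ± 0.08 and FZD9 by 1.83 ± 0.43 at 24 h. Of the R-spondins only RSPO3 was tested, and it fell by 0.68 ± 0.18 at 24 h, the time at which LGR4 was also lower. LGR6, the third receptor of that family, was called higher at 3, 6 and 12 h at 0.256 to 0.569 CPM (named after its values were seen). It held 0.0670 to 0.0848 CPM in control 0 h and 0.157 to 0.203 CPM in control 24 h. LGR6 thus passed the filter on low counts only through treated libraries, and its calls are given as a description.

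The 18 genes of the cytoplasmic chain, from Dishevelled through the destruction complex to beta-catenin and to the export of WNTs, had more genes called higher than lower at each time. At 3 h 8 were higher and 2 lower, at 6 h 12 and 1, at 12 h 5 and 0 and at 24 h 5 and 0, with medians of 0.15, 0.22, 0.07 and 0.04. The calls of 3 and 6 h were a larger share of the list than the 31.6% and 43.3% of all genes, and those of 12 and 24 h a smaller share than the 35.8% and 40.8%. No test was made of these shares. The counts of 12 h rest on libraries that stood apart. AXIN1, a relative of AXIN2, rose by 0.49 ± 0.07 (edgeR adjusted p = 0.000134) at 3 h and was 0.04 ± 0.08 at 24 h. TNKS2, a tankyrase that marks AXIN proteins for removal, rose at all 4 times, by 0.50 ± 0.04 at 6 h, but at 12 h was not called in replicate 1 alone (0.17, edgeR adjusted p = 0.0519). BTRC, which tags beta-catenin for degradation, fell by 0.47 ± 0.06 at 3 h and DVL2, a Dishevelled, by 0.18 ± 0.04. CTNNB1, which encodes beta-catenin itself and was named here after its values were seen, was 0.08 ± 0.06 at 3 h and rose by 0.23 ± 0.06 (edgeR adjusted p = 0.00521) at 6 h. WLS, which carries WNTs to the cell surface, rose by 0.39 ± 0.07 at 6 h and 0.35 ± 0.08 at 24 h.

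In the nuclear chain of 14 genes, 3 were higher and 3 lower at 3 h, 3 and 1 at 6 h, 3 and 1 at 12 h, and 2 and 3 at 24 h. Beside them, 31.6%, 43.3%, 35.8% and 40.8% of all genes tested were called at these times. No test was made against these shares, and the counts of 12 h rest on libraries that stood apart. TLE3, a Groucho co-repressor of TCF factors, stood at 53.1 to 64.2 CPM at 0 h and at 129 to 173 CPM at 3 h, a rise of 1.33 ± 0.18 (edgeR adjusted p = 0.000104), and rose by 1.67 at 6 h, 1.46 at 12 h and 1.07 ± 0.21 (edgeR adjusted p = 0.00111) at 24 h. Its relative TLE1 rose by 0.41 ± 0.13 at 3 h and fell by 0.41 ± 0.15 (edgeR adjusted p = 0.0361) at 24 h, and TLE4 rose by 0.79 ± 0.27 at 3 h. BCL9, a co-activator of beta-catenin, fell by 0.42 ± 0.05 at 3 h. CTNNBIP1, which keeps beta-catenin from TCF, was 0.29 ± 0.12 (edgeR adjusted p = 0.0958) at 3 h and fell by 1.11 ± 0.14 at 12 h (-0.81 in replicate 1 alone and -1.48 in replicate 2 alone) and 0.70 ± 0.14 at 24 h.

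The secreted and surface inhibitors other than DKK1 were called in few cases at 3 h (1 higher and 1 lower of 15 tested) and 6 h (0 and 3), 6 higher and 1 lower at 12 h, and 1 higher and 5 lower at 24 h. Over all genes tested, 31.6%, 43.3%, 35.8% and 40.8% were called at these times. At 24 h the inhibitors lay near that share. No test was made against these shares, and the counts of 12 h rest on libraries that stood apart. APCDD1, a membrane inhibitor and itself a target, was 1.29 ± 0.32 at 12 h and 0.69 (edgeR adjusted p = 0.141) in replicate 1 alone, and fell by 0.88 ± 0.33 (edgeR adjusted p = 0.0445) at 24 h. KREMEN2 was 0.91 at 12 h and 0.04 in replicate 1 alone, and TRABD2B 0.65 and 0.31. SFRP5, a secreted WNT binder, fell by 0.98 ± 0.12 (edgeR adjusted p = 3.32e-05) at 24 h and CER1 by 1.63 ± 0.48.

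Of 15 further known targets tested, 3 were higher and 2 lower at 3 h, 5 and 4 at 6 h, 6 and 3 at 12 h, and 4 and 5 at 24 h, with medians of -0.13, -0.33, 0.42 and 0.05. The shares of all genes tested that were called at these times were 31.6%, 43.3%, 35.8% and 40.8%. No test was made against these shares, and the counts of 12 h rest on libraries that stood apart. MYC, a growth regulator with many other inputs, rose by 2.48 ± 0.26 (edgeR adjusted p = 1.18e-05) at 3 h, from 16.4 to 16.7 CPM to 72.3 to 129 CPM, and by 1.44 ± 0.30 at 24 h. EPHB3, an ephrin receptor of intestinal crypts, was -0.22 ± 0.22 at 3 h and rose by 0.61 ± 0.22 at 6 h, 2.21 ± 0.23 at 12 h (1.63 in replicate 1 alone and 2.62 in replicate 2 alone) and 1.31 ± 0.25 at 24 h. CLDN2, a claudin of leaky epithelia, rose by 0.64 ± 0.15 at 6 h and 1.32 ± 0.16 at 24 h. CCND1, which encodes cyclin D1, fell by 0.69 ± 0.07 at 6 h, 0.82 ± 0.08 at 12 h and 0.35 ± 0.07 at 24 h. CDX2, an intestinal homeobox gene, fell by 0.55 ± 0.18 at 3 h and 1.06 ± 0.20 at 24 h. The WNT ligand genes were called 0 higher and 4 lower of 13 tested at 3 h, 1 and 3 at 6 h, 3 and 2 at 12 h, and 1 and 7 at 24 h. The same shares of all genes stand beside these calls. WNT5A was -0.09 in replicate 1 of 12 h alone and 1.98 in replicate 2 alone. At 24 h WNT2B fell from 48.8 and 61.0 CPM in control 24 h to 2.10 to 3.79 CPM.

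As a description of likeness over the 16 libraries, which share the 6 groups, the genes whose log2 CPM followed AXIN2 most closely among 10437 compared were TTF1, PDCD11, HDHD5, NUP62 and NAT10, with Pearson r from 0.935 to 0.953. Those that followed LGR5 among 10438 compared were OVCA2, PHYHIPL, ATMIN, KEAP1 and RIMKLA, with r from 0.957 to 0.979.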

How the data were processed

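The authors deposited 1 transcript table per library in the format of salmon (version 1.3.0 and hg38 per the labels' processing notes), with estimated counts and TPM, and the study's methods describe alignment by STAR and testing by DESeq2, so the route to these tables is not settled. How strand was used is not given in the sources used here. A series table of the authors' DESeq2 output, with fold changes, p-values and 16 columns of per-sample values, was not used. Of 177456 deposited transcripts, 165533 were joined to genes through GENCODE release 44 on GRCh38 by identifier without version, and 2.92% to 3.17% of the reads of a library stayed unmatched. Estimated counts were summed per gene, rounded and tested with edgeR 4.0.16 (two-sided quasi-likelihood test, a single fit of 6 groups, TMM factors of 0.947 to 1.05, filterByExpr), with Benjamini-Hochberg adjustment over 16705 genes and calls at 0.05. Levels in CPM use the TMM-scaled library size. TPM, as deposited, gave levels per length. SE is the log2 fold change over the root of F. Alternatives were DESeq2 1.42.0, RLE or no scaling, no filter, a length offset, a fit of the compared groups alone, a block on replicate number, limma 3.58.1 on log2(TPM + 1) and log2(TPM + 0.1), a log2 change of at least 1, the other control, and each library left out. Coding transcripts alone and the fit without both 12 h libraries were added after seeing the data. Named pathway genes were, per list, up to 3 called genes in each direction with the largest change at any time and a mean log2 CPM of at least 1. The members, lists and tests were chosen with earlier results of these data known. The fits were tested on simulated data.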

Additional observations from a re-analysis of the deposited data

Results flagged for a closer look

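In 7 members the response after a day on latrunculin B, relative to control 24 h, was unlike the early response at 3 h, relative to control 0 h, by a test of the difference itself in edgeR. On the log2 scale the 24 h effect exceeded the 3 h effect by 1.92 for LGR5, 1.73 for NKD1, 1.12 for AXIN2, 0.97 for LEF1, 0.77 for TCF7 and 0.65 for RNF43. For LGR4 the difference was -0.97, from a rise at 3 h to a fall at 24 h. The time of treatment and the control group change together in this difference. For NKD1 its size was 3.05 with an offset for transcript length (edgeR adjusted p = 0.0555), and for LEF1 it was 0.57 with coding transcripts alone (edgeR adjusted p = 0.24). Groups of 2 and 3 libraries were too small for a test of single outlying libraries.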

How the results depend on the processing

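Of 1490 values of single members under the alternatives, 1343 kept their direction and their side of the threshold, 73 lost a call, 22 gained one and 52 changed sign, and a required log2 change of at least 1 took 23 of the lost calls. DESeq2 and RLE scaling changed no call. The cause of the changes below was not tested. With a log2 change of at least 1, 3 members were called at 3 h, 4 at 6 h, 3 at 24 h, 3 from 3 h to 6 h, 3 from 6 h to 24 h and 3 for the 24 h effect minus the 3 h effect. Of all genes tested, 3.68%, 6.18%, 7.26%, 1.78%, 5.18% and 5.75% were called there, in that order. On log2(TPM + 1), 4 were called at 3 h, where 21.7% of all genes were called. From 3 h to 6 h, 4 were called with the length offset (all genes 12.1%) and 4 on log2(TPM + 0.1) (all genes 10.7%). With 1 library left out at a time, the members called numbered 8 at 3 h, 7 at 6 h, 4 to 8 at 12 h (8 without replicate 2 of 12 h), 6 to 7 at 24 h, 0 between the controls, 5 to 7 from 3 h to 6 h, 4 to 5 from 6 h to 24 h and 6 to 8 for the difference of effects.

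Values per transcript length changed sign for NKD1 at 3 h (-0.0117 with the length offset, -0.0422 on log2(TPM + 1) and -0.0385 on log2(TPM + 0.1)) and from 6 h to 24 h (-0.17, -0.0189 and -0.00469), for RNF43 at 24 h (-0.0996, -0.11 and -0.12), for LEF1 from 6 h to 24 h (0.25, 0.26 and 0.33) and for LGR4 between the controls (0.0139, 0.0225 and 0.0227). On both TPM scales LGR5 from 6 h to 24 h was 0.0159 and 0.0278, and the difference of effects of ZNRF3 was 0.0294 and 0.0367. Without scaling, the values from 6 h to 24 h were 0.13 for LGR5, 0.0245 for RNF43 and 0.10 for LEF1, and the difference of effects of ZNRF3 was 0.0668. With the other control LEF1 was 0.0422 at 6 h, 0.16 at 12 h and -0.17 at 24 h. With coding transcripts alone LEF1 was 0.0525 at 6 h, 0.34 at 12 h and -0.19 at 24 h, and LGR5 from 6 h to 24 h was 0.0614. Without the filter LEF1 at 24 h was -0.00913 and LGR5 from 6 h to 24 h 0.00371, and with only the compared groups these were -0.00202 and 0.00701. With 1 library left out at a time, values that changed sign ranged at 12 h from -0.14 to 0.74 for AXIN2, -0.16 to 0.42 for RNF43 and -0.00567 to 0.41 for TCF7, in each case lowest without replicate 1 and highest without replicate 2 of 12 h, and from -0.0902 to 0.0137 for LEF1. They ranged at 24 h from -0.0673 to 0.38 for DKK1 and -0.0969 to 0.11 for LEF1, between the controls from -0.0845 to 0.0283 for LGR4, from 6 h to 24 h between -0.0421 and 0.0479 for LGR5 and -0.14 to 0.0554 for LEF1, and from -0.0844 to 0.0144 for the difference of effects of ZNRF3.

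The difference in the long share of LEF1, in percentage points, was 2.67 at 3 h, 2.67 at 6 h, 1.68 at 12 h and 2.67 between the controls from estimated reads in place of TPM. With the replicate number as a block, 8, 7, 5 and 7 members were called at 3, 6, 12 and 24 h, 0 between the controls, 7 from 3 h to 6 h, 5 from 6 h to 24 h and 7 for the difference of effects, and LEF1 was 0.00416 at 12 h and -0.0163 at 24 h. Of all genes tested, this block called 29.1%, 41.1%, 32.1% and 35.9% at these times and 0.0359% between the controls. It called 19.4% from 3 h to 6 h, 35.3% from 6 h to 24 h and 24.6% for the difference of effects. Deviations of same-numbered libraries had a median correlation of -0.0231 over 36 pairs (-0.24 to 0.12), so the numbers were not taken to pair the samples. Between the controls, edgeR called 42 of all genes, DESeq2 267, and edgeR 219 without both 12 h libraries, 218 with only the compared groups, 91 without the filter, 66 with coding transcripts alone, 8 with RLE scaling, 8 with the length offset, 7 without scaling, 6 with the replicate block and 2 to 9 with 1 library left out (2 without replicate 1, 9 without replicate 2 and 6 without replicate 3 of control 0 h, 3 without replicate 1 and 9 without replicate 2 of control 24 h). limma called 2 on log2(TPM + 1) and 7 on log2(TPM + 0.1), and 7 passed with a log2 change of at least 1. Without replicate 1 of control 24 h, 4034 of all genes were called at 24 h instead of 6809, and 3012 for the difference of effects instead of 4665, the latter being 2977 with the length offset, 2941 on log2(TPM + 1) and 2940 on log2(TPM + 0.1). From 3 h to 6 h these 3 settings gave 2029, 1751 and 1788 calls instead of 3710, and at 12 h log2(TPM + 0.1) gave 3981. A log2 change of at least 1 left 614, 1033, 1266 and 1213 genes called at 3, 6, 12 and 24 h, 298 from 3 h to 6 h, 865 from 6 h to 24 h and 960 for the difference of effects. At 12 h only the compared groups gave 2828 calls over all genes instead of 5988. LGR5, SP5 and DKK1 rested on few reads in control cells, which limits the precision of their fold changes.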
